A study of Rattus norvegicus with 20 samples.

Results

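The genes described here are the DNA methyltransferases and Tet enzymes: Dnmt1, Dnmt3a, Dnmt3b, Tet1, Tet2, Tet3 and Uhrf1. They were chosen by name and not by a rule on their values, though with earlier results of these data known. Their probes were found through the transcript accession that the array design gives for each probe. Of these 7 genes, 2 had a probe that matched through the gene table used (RefSeq names, assembly GRCr8): Dnmt1 and Dnmt3a. The table matched 15715 gene symbols to probes in all. Dnmt3b, Tet1, Tet2, Tet3 and Uhrf1 were not matched and were not analysed here. Of the pair that matched, Dnmt3a was measured on 20 of 20 arrays and Dnmt1 on 0 of 20, so the account below is mainly one of Dnmt3a and of the pathway around it.

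The study exposed rats around birth to a mixture of brominated flame retardants and measured RNA in the ovaries of the daughters. Sprague Dawley dams ate a diet with the mixture, made of the polybrominated diphenyl ether products DE-71, DE-79 and BDE-209 with hexabromocyclododecane, from before mating until their pups were weaned. Besides a control diet at 0, the 3 exposed diets contained the mixture at 0.75, 250 and 750 mg/kg and correspond to the dam doses by which the groups are named (0.06, 20 or 60 mg/kg/day). Each array holds RNA from the entire ovaries of 1 daughter aged 46 days, after a period without exposure. There were 5 animals at 0, 4 at 0.06, 5 at 20 and 6 at 60 mg/kg/day, from independent litters per the labels; replicate 4 of the 0.06 mg/kg/day group was set aside by the submitters as an outlier and was not analysed here. The doses are those of the dams' diet, and what each daughter received was not measured in these files.

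Methylation of cytosine in CpG pairs is written by the Dnmt3 enzymes on unmarked DNA and copied by Dnmt1 after replication, with Uhrf1 bringing Dnmt1 to half-methylated sites. The Tet enzymes oxidise methylcytosine, which opens the way to its removal. In the ovary, Dnmt3a is known for setting methylation in growing oocytes, including at imprinted genes, and it is also expressed in somatic cells. In RNA from a whole ovary, fewer cells of a type and less RNA per cell cannot be told apart.

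All values are log2 of the processed Cy3 signal minus log2 of the same array's 75th percentile, so that 0 marks a probe as bright as the 75th percentile and −3 a probe 3 log2 units dimmer. The 75th percentile itself lay between 1158 and 1737 signal units, and 74.8 to 83.4% of the gene spots on an array were well above background. The 20 arrays sat on 3 slides of 7, 6 and 7 arrays, each slide with all 4 doses. Slide mattered for many genes: 4455 of 23274 probes, 19.1%, differed between slides at an adjusted p under 0.05 (limma). Of the ovary markers, 14 of 14 matched oocyte genes and 10 of 10 matched granulosa cell genes were measured, of 22 and 12 listed. Among all matched symbols, 12464 of 15715 were measured. The matched macrophage genes (12 of 12) and oviduct epithelium genes (8 of 8) were all measured too. The oocyte gene Ddx4 passed the background call on 5 of 20 arrays only. These counts therefore do not set ovary markers apart from other genes.

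Dnmt1, the maintenance methyltransferase, was represented by 1 probe for transcript NM_053354, printed at 2 spots on each array. The probe was not well above background on any of the 20 arrays. Its log2 value ran from −9.71 to −8.64, while the dimmest signal that the scanner software did call well above background ran from −7.69 to −6.73, and on 20 of 20 arrays the Dnmt1 probe lay below that line. In processed signal it was between 2.08 and 3.72 units. Values this low carry no order between doses, so no fold and no correlation are given for it. They describe this probe and do not show that the ovary lacks the transcript.

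Dnmt3a, the de novo methyltransferase, was represented by 1 probe for transcript NM_001003958, also printed at 2 spots, and was well above background on 20 of 20 arrays with processed signals from 97.4 to 282 units. In the 5 unexposed ovaries, replicates 1 to 5, its log2 level was −2.86, −2.81, −2.95, −2.68 and −3.23. These control animals lay close together except for replicate 5, which was the lowest. In the 0.06 mg/kg/day group, replicates 1, 2, 3 and 5 were at −3.29, −3.20, −3.22 and −2.76. Of these, 3 lay between −3.29 and −3.20, near the low end of the controls, and replicate 5 stood above them. In the 20 mg/kg/day group, replicates 1 to 5 were at −3.67, −3.13, −2.96, −2.75 and −3.14, with replicate 1 the lowest of all 20 arrays. The 6 animals at 60 mg/kg/day ran from −3.58 through a median of −3.21 to −2.55.

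**Figure D1:**
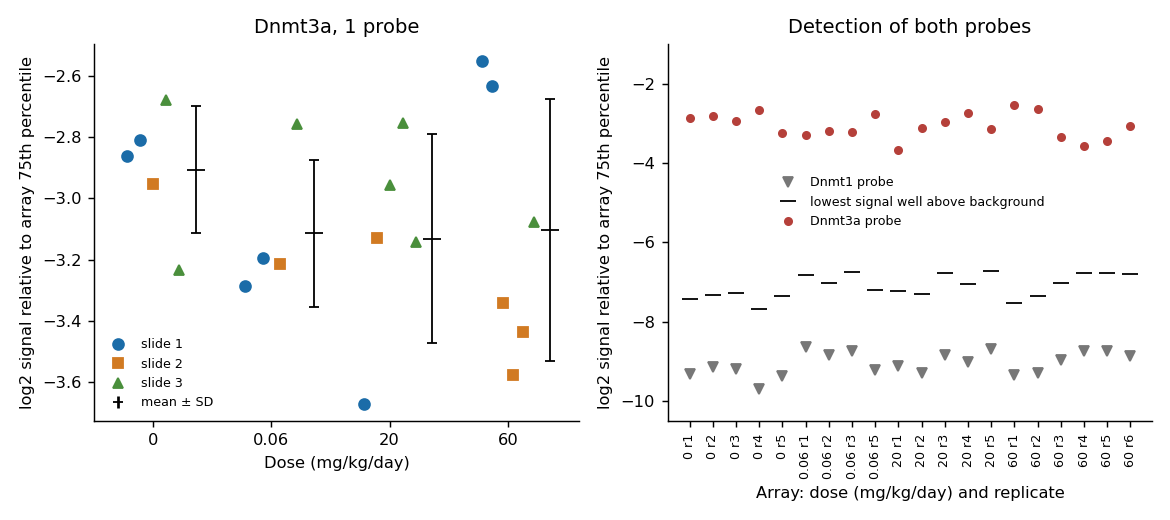
Left, the log2 level of Dnmt3a relative to the array's 75th percentile (vertical axis) for each ovary by dose (horizontal axis); colours and shapes mark the 3 slides, and the black marks give the mean ± SD of each group. Right, the Dnmt3a and Dnmt1 probes on each array beside the lowest signal called well above background: Dnmt3a lies above that line on 20 of 20 arrays and Dnmt1 below it on 20 of 20.

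No shift of Dnmt3a with dose passed a test. Its mean was −2.91 ± 0.21 (SD, n = 5) without exposure, −3.11 ± 0.24 (SD, n = 4) at 0.06, −3.13 ± 0.34 (SD, n = 5) at 20 and −3.10 ± 0.43 (SD, n = 6) at 60 mg/kg/day. The order of the means was 0, then 60, then 0.06, then 20 mg/kg/day, and no neighbours in that order differed by more than their spread. Below the lowest control lay 1 of 4 animals at 0.06, 1 of 5 at 20 and 3 of 6 at 60 mg/kg/day, while 2 of the 6 animals at 60 mg/kg/day lay above the highest control. Every exposed group therefore overlapped the controls.

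Against the unexposed group, the Dnmt3a difference was −0.21 ± 0.21 (SE) on the log2 scale at 0.06 mg/kg/day, with a 95% interval from −0.66 to 0.24 (limma, adjusted p = 1.00). At 20 mg/kg/day it was −0.22 ± 0.20 (SE; −0.65 to 0.20; adjusted p = 0.931). At 60 mg/kg/day it was −0.20 ± 0.19 (SE; −0.60 to 0.21; adjusted p = 0.852). Differences between the exposed groups were −0.017 for 20 against 0.06, 0.011 for 60 against 0.06 and 0.029 for 60 against 20 mg/kg/day. The trend over the order of doses was −0.061 ± 0.062 (SE) per step (adjusted p = 0.942), and the joint test of any dose difference gave an adjusted p of 0.959. The intervals set the limits of what these arrays could show: a Dnmt3a level up to 1.58-fold, 1.57-fold or 1.52-fold lower than in controls at the 3 rising doses, or up to 1.18-fold, 1.15-fold or 1.16-fold higher, remains within them. At an adjusted p under 0.05, 0% of the 23274 probes tested were called in each of the 3 comparisons with controls. At an unadjusted p under 0.05, the shares called at the 3 rising doses were 3.05%, 4.58% and 6.29%, and Dnmt3a was not among those called. These counts moved with single arrays. The 711 probes at 0.06 mg/kg/day became 467, 1276, 449 and 1235 without control replicates 1, 3, 4 and 5, and 1440 without replicate 5 of that group. The 1066 in the middle dose group became 558 and 2148 without control replicates 1 and 3, and 1667 without its own replicate 4. The 1464 in the highest dose group became 961, 2259 and 1037 without control replicates 1, 3 and 4. They became 976, 1111 and 1882 without that group's own replicates 3, 4 and 6.

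Within slides the differences went both ways. On slides 1, 2 and 3, the Dnmt3a difference from controls was −0.41, −0.26 and 0.20 for the 0.06 mg/kg/day group. For the middle dose it was −0.84, −0.18 and 0.0033. For 60 mg/kg/day it was 0.24, −0.50 and −0.12, where slide 1 held the 2 highest animals of the group and slide 2 its 3 lowest. With slide as a block the difference at 60 mg/kg/day was −0.095, and without slide 2 it was 0.14. The slide test for Dnmt3a itself did not pass (limma, adjusted p = 0.291). Some of these cells hold 1 array, so they are values without a test.

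The gap between arrays was larger than the gap between spots of one array. Both Dnmt3a spots differed by a median of 0.12, and the SD between spots was 0.13 against 0.32 between arrays. From the dimmest to the brightest array, Dnmt3a spanned 1.12 on the log2 scale, or 2.18-fold.

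Zp3, a protein of the egg coat made by oocytes, served as the measure of oocyte RNA. It averaged 0.38 ± 0.37 (SD, n = 5) without exposure, 0.27 ± 0.33 (SD, n = 4) at 0.06, −0.19 ± 0.27 (SD, n = 5) at 20 and 0.59 ± 0.57 (SD, n = 6) at 60 mg/kg/day. Both genes had their lowest mean in the 20 mg/kg/day group, but for Dnmt3a it was nearly level with that at 0.06 mg/kg/day (difference −0.017 ± 0.21, SE). The highest mean was that of the controls for Dnmt3a and that of the 60 mg/kg/day group for Zp3. Over the 20 animals, Dnmt3a and Zp3 had a Pearson r of 0.38 (permutation test, two-sided, p = 0.097; adjusted over 13 relations, 0.194) and a Spearman rho of 0.29 (permutation p = 0.209, adjusted 0.340). Without the 2 arrays farthest from the median of Zp3, both at the highest dose, r was 0.09, so the relation rested on those arrays. Within slides 1, 2 and 3, r was 0.58, 0.06 and −0.01. The mean of 14 measured oocyte genes gave r = 0.46 with Dnmt3a (permutation p = 0.0402, adjusted 0.105; rho = 0.42, adjusted 0.182), and 0.25 without the 2 farthest arrays. Within slides 1, 2 and 3 it gave 0.52, 0.34 and 0.07.

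Top2a, named as the proliferation gene for this comparison, was not matched and was not analysed here, so the mean of 28 measured of 30 listed proliferation genes took its place. Dnmt3a showed no relation to it over the 20 animals, with r = 0.01 (permutation p = 0.962, adjusted 0.989) and rho = 0.03 (permutation p = 0.911, adjusted 0.911). Without the 2 farthest arrays r was −0.22, and within slides 1, 2 and 3 it was 0.19, 0.13 and −0.31. The proliferation mean itself was −0.15 ± 0.20 (SD, n = 5) in controls, −0.13 ± 0.29 (SD, n = 4) at 0.06, 0.065 ± 0.15 (SD, n = 5) at 20 and 0.16 ± 0.19 (SD, n = 6) at 60 mg/kg/day. At an unadjusted p under 0.05, 0, 5 and 12 of its 28 genes were higher at the 3 rising doses, where 1.43%, 2.73% and 2.81% of all probes were, and none passed the adjusted threshold. Tk1, the thymidine kinase of dividing cells, differed from controls by 1.56 ± 0.50 (SE) at 20 mg/kg/day (unadjusted p = 0.0054, adjusted p = 0.929 by limma). That was the largest difference of the 28 genes at this dose, whose median was 0.18 and lowest −0.75.

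Dnmt3a followed the brightness of the array more closely than either biological reference in size of r. With log2 of the array's 75th percentile, r was 0.83 (permutation p = 2e-05, adjusted 0.00026) and rho was 0.80 (permutation p = 3e-05, adjusted 0.00039). That relation was looked for after the values had been seen. It was 0.78 without the 2 farthest arrays (adjusted permutation p = 0.0022), and 0.88, 0.83 and 0.45 within slides 1, 2 and 3. Each Dnmt3a value already has this percentile subtracted. The same r was 0.73 after quantile normalization, 0.71 with normexp background correction and 0.79 in the authors' deposited table. Over 10686 other genes measured on all 20 arrays, 0.112% had an r of at least this size, 6.82% an r above 0.5 and 7.61% an r below −0.5. The log2 75th percentile averaged 10.58 ± 0.11 (SD, n = 5) in controls, 10.32 ± 0.19 (SD, n = 4) at 0.06, 10.44 ± 0.12 (SD, n = 5) at 20 and 10.42 ± 0.25 (SD, n = 6) at 60 mg/kg/day. The controls had the highest mean for both the percentile and Dnmt3a. The lowest mean was at 0.06 mg/kg/day for the percentile and at 20 mg/kg/day for Dnmt3a. With the log2 75th percentile as a covariate, the Dnmt3a differences from controls were 0.18, −0.024 and 0.043 at the 3 rising doses (limma, adjusted p = 1.00, 0.986 and 1.00).

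**Figure D2:**
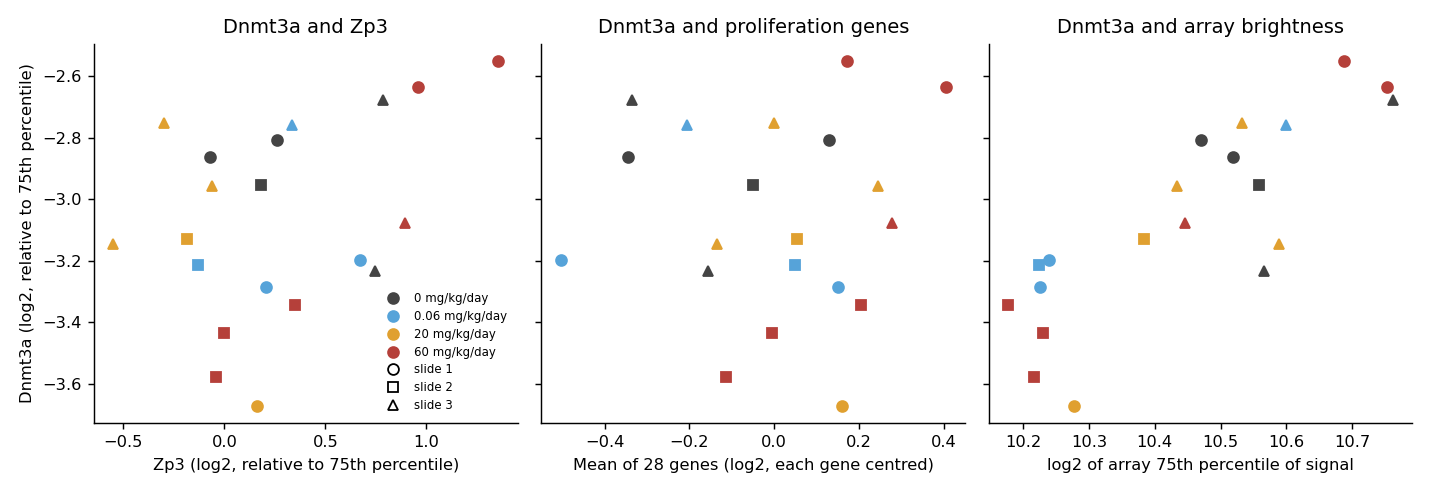
The log2 level of Dnmt3a (vertical axis) in the 20 ovaries against Zp3 (left), the mean of 28 proliferation genes (middle) and log2 of the array's 75th percentile of signal (right); colours mark doses and shapes mark slides. The points form a rising band in the right panel (r = 0.83), a loose one for Zp3 (r = 0.38) and none for proliferation (r = 0.01).

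The genes whose pattern over the 20 arrays was most like that of Dnmt3a were Sinhcaf, a subunit of a Sin3 histone deacetylase complex, with r = 0.78, Mast4, a serine/threonine kinase, with 0.78, Twist1, a mesenchymal transcription factor, with 0.77, Ltbp1, which binds latent TGF-beta, with 0.76, and Herc4, a ubiquitin ligase, with 0.76. Taken as deviations from slide means, these r were 0.73, 0.75, 0.72, 0.75 and 0.69. These 5 genes also followed the array's log2 75th percentile, with r of 0.75, 0.62, 0.71, 0.76 and 0.71 in the same order. Among the 10686 genes compared, 5.57% had an r with Dnmt3a above 0.5 and 7.72% below −0.5. The points share the 20 arrays and their brightness, so these r are descriptions.

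Genes that work beside the methyltransferases or read the mark formed a list of 19, of which 17 were measured. None of the 17 passed the adjusted threshold against controls at any dose, and 0, 0 and 0 of them had an unadjusted p under 0.05 at the 3 rising doses. Their median difference from controls was −0.07, 0.02 and −0.03, beside −0.03, 0.03 and −0.04 over all probes. Cdca7, which recruits a chromatin remodeller needed for DNA methylation, had the largest mean difference of the 3 genes named from the list, with −2.99 ± 0.23 (SD, n = 5) in controls and −2.59 ± 0.37 (SD, n = 6) at 60 mg/kg/day, a difference of 0.40 ± 0.20 (SE; limma, adjusted p = 0.783). Of the 6 animals at that dose, 3 lay above all controls. For counts of animals outside the range of the controls, here and below, the share over all probes is not given, so they are descriptions. The Cdca7 difference was 0.046 with the proliferation mean as a covariate and 0.25 without slide 1. Zbtb4, a zinc finger protein that binds methylated CpG, was at 1.05 ± 0.06 (SD, n = 5) in controls and 0.91 ± 0.11 (SD, n = 5) in the 20 mg/kg/day group, a difference of −0.14 ± 0.08 (SE; adjusted p = 0.929 by limma). It was lower than all controls in 4 of 5 animals at that dose, and the difference was −0.078 without slide 3. Trdmt1, a relative of the DNA methyltransferases that methylates transfer RNA, was at −3.97 ± 0.10 (SD, n = 5) in controls and −4.16 ± 0.04 (SD, n = 4) at 0.06 mg/kg/day, a difference of −0.19 ± 0.11 (SE; adjusted p = 1.00 by limma). In that group 4 of 4 animals lay below all controls, and the share of all probes that separated in this way is not given. Trdmt1 was not among the 1.62% of all probes that were lower at an unadjusted p under 0.05. With normexp background correction the Trdmt1 difference was −0.018.

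With the Tet enzymes not matched, their side of the cycle was described by 18 measured genes of 20 listed for demethylation and base repair. None passed the adjusted threshold, and 0, 0 and 2 had an unadjusted p under 0.05 at the 3 rising doses, both of them higher, where 1.43%, 2.73% and 2.81% of all probes were higher. The median difference was 0.00, 0.01 and 0.05. Idh1, which makes the 2-oxoglutarate that Tet enzymes use, was at 3.41 ± 0.25 (SD, n = 5) in controls and 3.83 ± 0.31 (SD, n = 6) at 60 mg/kg/day, a difference of 0.42 ± 0.17 (SE; limma, unadjusted p = 0.0275, adjusted p = 0.782). In 4 of 6 animals it was above all controls. Parp1, a sensor of DNA strand breaks in base repair, was at 1.91 ± 0.08 (SD, n = 5) in controls and 2.09 ± 0.06 (SD, n = 6) at 60 mg/kg/day. Its difference was small, 0.18 ± 0.08 (SE), with an unadjusted p of 0.0330 and an adjusted p of 0.782 by limma. That placed it among the 2.81% of all probes that were higher at an unadjusted p under 0.05. In all, 6 of 6 animals lay above all controls, a separation whose share over all probes is not given. Ogt, a sugar transferase that binds Tet proteins, differed by −0.17 ± 0.11 (SE) at 0.06 mg/kg/day (limma, adjusted p = 1.00), and none of the 4 animals lay outside the range of the controls. Without slide 3 the Ogt difference was −0.014.

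**Figure D3:**
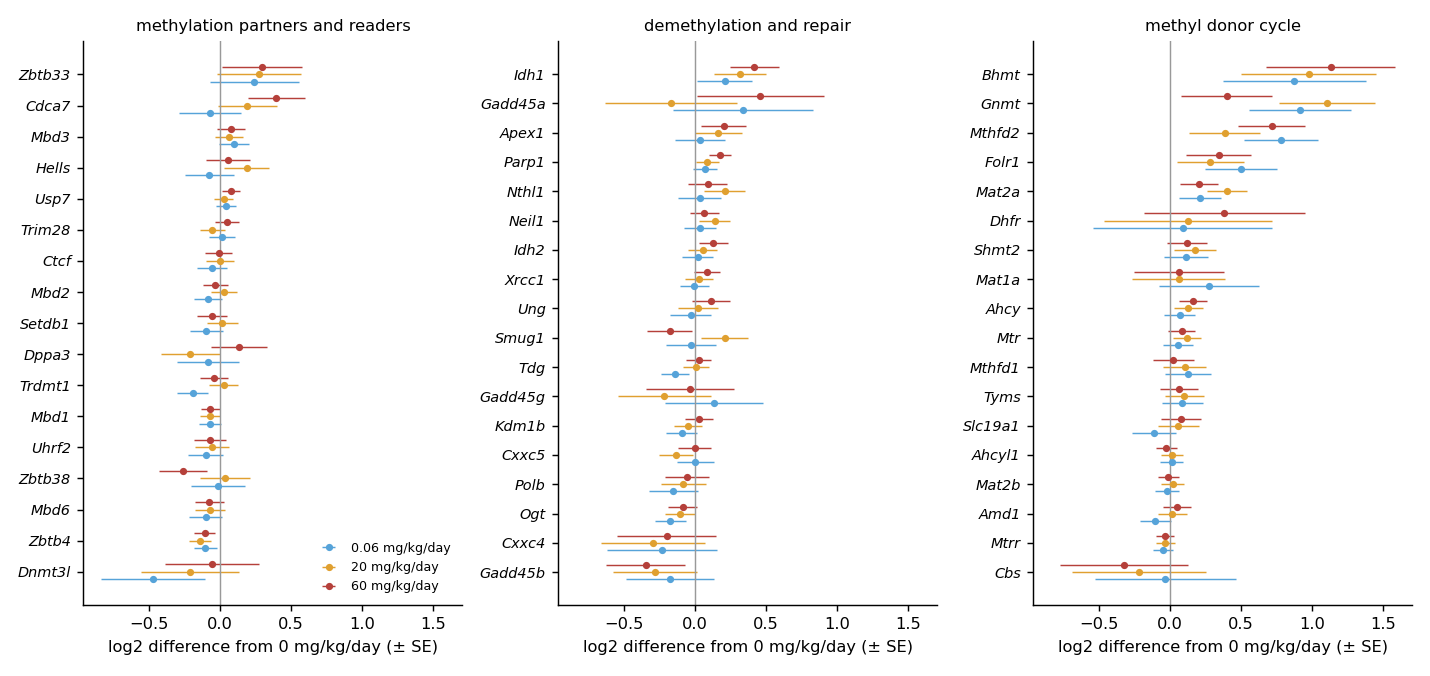
Differences from the 0 mg/kg/day group (horizontal axis, log2, ± SE from limma) for the measured genes of 3 lists, with 1 point per gene and dose; genes are ordered by their mean difference. Most genes lie close to 0, and the points farthest to the right are Bhmt, Gnmt and Mthfd2 of the methyl donor cycle.

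The methyl donor cycle supplies S-adenosylmethionine, the methyl group that Dnmt3a uses. Of 20 listed genes 18 were measured, 0 passed the adjusted threshold, and 2, 2 and 2 were higher at an unadjusted p under 0.05 at the 3 rising doses, with 0 lower. Of all probes, 1.43%, 2.73% and 2.81% were higher and 1.62%, 1.85% and 3.48% lower. Their median difference from controls was 0.09, 0.11 and 0.08, beside −0.03, 0.03 and −0.04 over all probes, with 13, 16 and 14 of the 18 above 0. The 3 comparisons share the control arrays.

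Gnmt, which consumes S-adenosylmethionine by methylating glycine, was at −7.03, −5.54, −5.26, −6.53 and −5.70 in control replicates 1 to 5 and at −4.88, −4.76, −5.53, −4.98 and −4.37 at 20 mg/kg/day. The controls spread widely, and 4 of 5 animals at 20 mg/kg/day lay above them all. Gnmt was well above background on 20 arrays but dim. In control replicate 1 it lay near the lowest signal called well above background on that array, −7.43. That lowest signal averaged −7.41 in controls and −6.95, −7.02 and −7.05 at the 3 rising doses. Its part in the Gnmt differences below was not tested. The difference was 1.11 ± 0.34 (SE) at 20 mg/kg/day (limma, unadjusted p = 0.0041, adjusted p = 0.929), 0.92 ± 0.36 (SE) at 0.06 (adjusted p = 1.00) and 0.40 ± 0.32 (SE) at 60 mg/kg/day (adjusted p = 0.83). With normexp background correction the Gnmt differences were 0.46 at 20 and 0.45 at 0.06 mg/kg/day, and at the highest dose 0.25. Without control replicate 1, the lowest control, the Gnmt difference at the highest dose was 0.14.

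Mthfd2, a mitochondrial enzyme of folate metabolism, was at 1.03, 2.00, 2.05, 1.59 and 1.94 in the controls and 2.64, 2.55, 2.57 and 2.26 in the 0.06 mg/kg/day group. In the highest dose group it ran from 1.92 through a median of 2.58 to 2.76. All 4 animals at 0.06 and 5 of 6 at 60 mg/kg/day lay above all controls, counts whose share over all probes is not given. At an unadjusted p under 0.05, 1.43% and 2.81% of all probes were higher in those comparisons. The difference was 0.78 ± 0.26 (SE) at 0.06 (limma, adjusted p = 1.00), 0.39 ± 0.25 (SE) at 20 (adjusted p = 0.929) and 0.72 ± 0.24 (SE) at 60 mg/kg/day (unadjusted p = 0.0072, adjusted p = 0.782). With the array's 75th percentile as a covariate these were 0.45, 0.21 and 0.51, and without slide 1 the Mthfd2 difference at 20 mg/kg/day was 0.11.

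Mat2a, which makes S-adenosylmethionine outside the liver, was at −1.41, −1.46, −1.38, −1.32 and −1.17 in the controls and at −1.10, −0.88, −1.09, −0.63 and −1.03 at 20 mg/kg/day. These groups did not overlap, with 5 of 5 animals above all controls, and the share of all probes that separated in this way is not given. By its unadjusted p, Mat2a was among the 2.73% of all probes that were higher at a p under 0.05 in that comparison. The difference was 0.40 ± 0.14 (SE) at 20 mg/kg/day (limma, unadjusted p = 0.0102, adjusted p = 0.929), and 0.21 ± 0.15 and 0.21 ± 0.13 (SE) at 0.06 and 60 mg/kg/day.

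**Figure D4:**
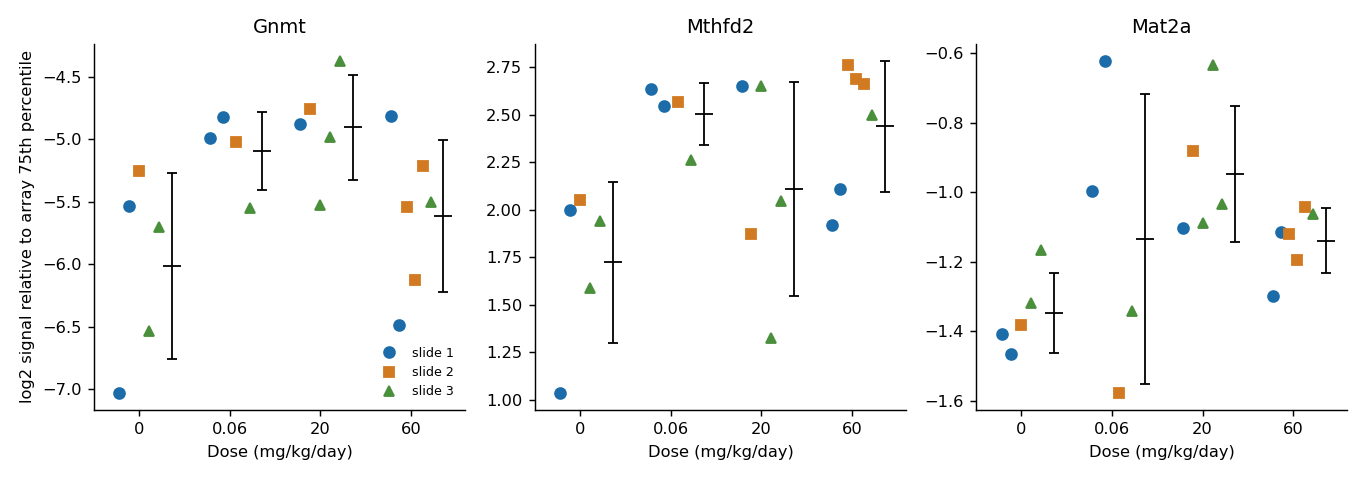
Log2 levels of Gnmt, Mthfd2 and Mat2a relative to the array's 75th percentile (vertical axes) for each ovary by dose (horizontal axes); colours and shapes mark the 3 slides and black marks give the mean ± SD. Mat2a at 20 mg/kg/day lies above the controls in 5 of 5 animals and Gnmt in 4 of 5. The share of all probes that separated in this way is not given, and neither difference passed the adjusted threshold (limma, adjusted p = 0.929 for both).

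The mean of the 18 methyl donor genes and Dnmt3a went in opposite directions over the 20 animals, with r = −0.58 (permutation p = 0.0073, adjusted 0.0473) and rho = −0.60 (permutation p = 0.00585, adjusted 0.0380). It was −0.59 without the 2 farthest arrays. Within slides 1, 2 and 3, r was −0.61, 0.11 and −0.48, and as deviations from slide means it was −0.48 (adjusted permutation p = 0.145), so the call did not hold once slide means were taken out. Of the 13 relations of Dnmt3a that were computed, this one and that with the array's 75th percentile passed the adjusted threshold of 0.05. Both references were chosen after the values had been seen, so their p-values are descriptions.

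Markers of other cell types were set beside Dnmt3a in the same way. The corpus luteum, lymphocyte, oviduct epithelium and adipocyte means had r of −0.05, −0.0033, 0.26 and −0.16 with Dnmt3a. Among the pathway lists, the partner and demethylation means had 0.37 and 0.28. The mean of 10 measured granulosa cell genes had r = 0.55 with Dnmt3a (permutation p = 0.0129, adjusted 0.0558; rho = 0.51, adjusted 0.0726), 0.41 without the 2 farthest arrays, and 0.69, 0.32 and 0.08 within slides 1, 2 and 3. The mean of 12 measured of 12 listed macrophage genes had r = −0.48 (permutation p = 0.0317, adjusted 0.103; rho = −0.54, adjusted 0.0726), and −0.30, −0.80 and −0.08 within slides. That mean ran from −0.59 to 0.17 in controls, from −0.80 to 0.43 at 0.06, from −0.20 to 0.36 at 20 and from −0.33 to 0.52 at 60 mg/kg/day. Of the 12 macrophage genes, 0, 3 and 6 were higher than in controls at an unadjusted p under 0.05 at the 3 rising doses, where 1.43%, 2.73% and 2.81% of all probes were, and 0 passed the adjusted threshold. The macrophage mean also varied by slide, with −0.22, 0.35 and −0.085 on slides 1, 2 and 3. Slide 2 held 3 of the 6 arrays at 60 mg/kg/day and 1 of the 5 controls. The part of slide in these counts was not tested. The part of these cell types, or of array brightness, in the values of Dnmt3a and of the methyl donor genes was not tested.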

How the data were processed

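RNA from 20 rat ovaries was labelled with Cy3 and hybridised to 1-colour Agilent arrays, per the labels' protocols. The deposited intensity values were made with Feature Extraction 11.5.1.1 (protocol GE1_1105_Oct12), per the file headers. The deposited table of log2 values followed the scanner values closely (r of deviations from gene means, 0.947 to 0.991 per array). Its column medians lie near 0; how its baseline was set is not given by any source used here.

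The gProcessedSignal of each spot was scaled to the array's 75th percentile over gene spots, outlier spots were dropped and the spots of a probe averaged. A probe counted as well above background on an array if most of its spots were, and 23274 of 30367 probes, well above background on at least 4 arrays, were tested. The majority rule was set to come close to an earlier processing of these data. No spot was saturated (0 in all). Doses were compared with limma 3.58.1 in R 4.3.3, with all 20 arrays sharing 1 estimate of the spread and Benjamini-Hochberg adjustment over all probes; an adjusted p under 0.05 was called. Correlations used two-sided permutation tests with 100000 resamples, adjusted over 13 relations. Steps were tested on simulated data.

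Of the probes, 18758 had 1 gene symbol, 0 had several and 11609 had none in the table. A gene with several probes was represented by the brightest. Members and gene lists were chosen with earlier results of these data known. A gene of the partner list is not reported here and was left out of the list. From the partner, demethylation, methyl donor, oocyte and proliferation lists, the 3 genes with the smallest p over the contrasts with 0 mg/kg/day were eligible to be named; the planned rule held this for every list, and the other lists are given by counts and means. The references other than Zp3, Top2a and the oocyte and proliferation lists, the array's 75th percentile as a covariate, and leaving the theca list out of the correlations because its arrays form separate clusters, were chosen after seeing the data. The values used for normexp were median signals and median backgrounds (offset 50) in place of the planned mean signals, which the files used here do not hold. Other alternatives were quantile normalization, other filters, blocks for slide, replicate number and spike-in slope, and leaving out arrays or slides. The labels do not say that a replicate number ties animals together. The 27 pairs with the same number in different groups had a mean correlation of deviations of 0.01, from −0.31 to 0.35, which does not settle it. For pairs in different groups, that mean was 0.16 on the same slide and −0.07 on different slides. The number of arrays limits the precision.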

Additional observations from a re-analysis of the deposited data

Results flagged for a closer look

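For Dnmt3a, the named genes and some of the list means, 72 groups of 4 to 6 arrays were checked. Of these, 6 held an array whose gap to its neighbour took up an unusually large share of the group's range (Dixon's 95% critical value). By chance about 5% of groups are flagged. Not all list means were checked. For example, the granulosa mean at 20 mg/kg/day, not among those flagged, was −0.30 in replicate 5, beside −0.12 to −0.085. Dnmt3a at 0.06 mg/kg/day was at −2.76 in replicate 5, while the other 3 arrays lay between −3.29 and −3.20. The mean of the oocyte genes at 20 mg/kg/day was −0.75 in replicate 5, beside −0.26 to −0.16 in the other 4 arrays. Zbtb4 at 20 mg/kg/day was at 0.71 in replicate 3, beside 0.92 to 1.01. Parp1 at 0 mg/kg/day was at 1.78 in replicate 1, beside 1.93 to 1.98. Tk1 at 60 mg/kg/day was at 0.30 in replicate 1, beside 1.27 to 1.54. Tpx2, a spindle assembly factor, at 0.06 mg/kg/day was at −2.87 in replicate 2, beside −2.11 to −1.99.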

How the results depend on the processing

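No probe was called in any dose comparison under the main settings or under the alternatives run, except that the replicate block gave 2 probes for 60 against 20 mg/kg/day, both lower. That block changed no other call, and the labels do not say that the numbers tie animals together. The Dnmt3a difference from controls changed sign with the array's 75th percentile as a covariate (0.18 at 0.06 and 0.043 at 60 mg/kg/day) and without slide 2 (0.14 at 60 mg/kg/day, and a trend of 0.037 per dose step). Leaving out 1 array it ran from −0.33 to −0.15, from −0.32 to −0.090 and from −0.31 to −0.10 at the 3 rising doses. Without slide 3 it was −0.36 at 0.06 and −0.53 at 20 mg/kg/day, and without slide 1 it was −0.032, −0.042 and −0.40 at the 3 rising doses. Between exposed groups, where Dnmt3a differences were near 0, signs also changed. For 20 against 0.06 mg/kg/day they became 0.077 with the spike-in slope block and 0.14 with Zp3 as a covariate, and ran from −0.11 to 0.12 leaving out 1 array. For 60 against 0.06 mg/kg/day they became −0.0057 with the replicate block, −0.022 in the deposited table, −0.097 with Zp3, −0.059 with the proliferation mean and −0.13 with the 75th percentile as a covariate, −0.37 without slide 1, and from −0.099 to 0.13 leaving out 1 array. For 60 against 20 mg/kg/day they became −0.23 with Zp3 as a covariate, −0.36 without slide 1, and from −0.11 to 0.12 leaving out 1 array. The r of Dnmt3a with the proliferation mean became −0.000648 in the deposited table, −0.26 without slide 1, −0.22 without the 2 farthest arrays, and from −0.14 to 0.12 leaving out 1 array.

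The r of Dnmt3a with the methyl donor mean kept its sign, from −0.64 to −0.54 leaving out 1 array, but missed the adjusted threshold in 11 of those 20 and with quantile normalization (−0.49), slide deviations (−0.48), dose deviations (−0.52) and without slide 1, 2 or 3 (−0.53, −0.56 and −0.59). That with the granulosa mean passed it in 4 of 20, and that with the macrophage mean passed it without the 2 farthest arrays (−0.64) and without replicate 2 at 0.06 mg/kg/day (−0.62). That with the 75th percentile kept its call throughout, from 0.71 to 0.88. Other sign changes were H1f8 at 20 mg/kg/day with Zp3 as a covariate (0.099), Zp1 at 20 mg/kg/day with Zp3 as a covariate (0.089) and without slide 3 (0.062), Mat2a at 0.06 mg/kg/day without slide 1 (−0.17), Zp3 at 0.06 mg/kg/day with the 75th percentile as a covariate (0.20), without slide 3 (0.12) and leaving out 1 array (−0.25 to 0.022), and Zp3 at 60 mg/kg/day without slide 1 (−0.27). The cause was not tested. Top2a as a covariate and correlations between members were planned and not run, since Top2a was not matched and 1 member was measured. The other 6 of the 13 relations of Dnmt3a, none past the threshold under the main settings, were left out of the alternatives after several were seen to change sign between settings.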
